A study of Homo sapiens with 9 samples.

Results

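Serum-grown LNCaP cells were compared with LNCaP cells deprived of androgen. The comparison took 2 of the 9 arrays of the study, the steady-state array and the control array of its inhibitor series, and its measure is the log2 value of the first minus that of the second. Serum-grown cells were kept in RPMI medium with 10% fetal bovine serum. Deprived control cells were washed in medium without serum and then held for 48 h in medium with 5% charcoal-stripped serum, which has lost most of its steroids. The labels name no vehicle for this control. Androgen, the other components that charcoal removes, the percentage of serum and the washing differ together between the 2 arrays, so their parts cannot be told apart.

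The study asked how the androgen dihydrotestosterone (DHT) acts when topoisomerase II is inhibited or TOP2B is lowered. In the inhibitor series, deprived cells also received 100 nM DHT for 16 h, alone or after 2 h with 100 µM etoposide or 100 µM merbarone. The shRNA series used vectors for sh-control or sh-TOP2B that also express GFP, followed by deprivation, vehicle or DHT, and a sort for GFP. Each of the 9 groups had 1 array, and the labels do not speak of separate cultures. LNCaP is an established line from a lymph node metastasis of human prostate cancer, and it depends on the androgen receptor for growth.

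The androgen receptor is a transcription factor that enters the nucleus when it binds testosterone or DHT. In prostate epithelium it drives genes of secreted proteases, transporters and lipid enzymes, and in LNCaP cells it also permits passage from G1 into DNA replication. Cells that leave the cycle lose the transcripts of replication genes, which are controlled by E2F factors, and those of mitosis genes, which are controlled through CHR promoter elements. NF-kB and interferon regulatory factors drive other programmes, of chemokines, acute phase proteins, antiviral proteins and antigen presentation.

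Each gene is represented by whichever of its probe sets was brightest on average, and 11865 genes were bright enough to be tested. Values are log2 RMA values, so 1 unit is a doubling. Levels under the array median (5.63 in serum-grown and 5.66 in deprived control cells) are called dim here. Where 1 side is dim, its level was raised to that median and the difference is worded "at least", while the p-value still belongs to the deposited difference. With 1 array a side, the standard error (SE) was borrowed from the 3 pairs of DHT and vehicle arrays by limma, and its median was 0.196. The adjusted p of a gene therefore takes both arrays to vary like those pairs. The words rose and fell are used of serum-grown cells relative to deprived control cells, and only past a limma adjusted p of 0.05.

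Of 16 luminal identity genes on the array, 13 were bright on at least 1 of the 2 arrays and 3 (GATA3, KRT19 and ERG) were dim on both. The transcription factor gene HOXB13 had 11.26 in serum-grown and 11.27 in deprived control cells, and the keratin gene KRT18 had 13.06 and 13.10 in the same order, and neither passed the test. PTPRC, which defines leukocytes (3.77 and 3.68), and CDH5, which defines endothelium (3.48 and 3.60), were dim on both arrays. Of the marker lists, 5 of 8 fibroblast, 5 of 6 leukocyte, 4 of 6 endothelial and 3 of 5 basal epithelial genes were dim in serum-grown cells, against 6, 4, 4 and 2 in deprived control cells. The leukocyte gene that differed was ITGAM, an integrin subunit of myeloid cells, with 4.55 in serum-grown and 8.50 in deprived control cells. It was the only leukocyte marker tested, and it fell (at least 2.87 lower). COL1A1 and VWF, the only fibroblast and endothelial markers tested, and ITGB4 and DST, the basal ones, did not pass the test. The 3' minus 5' difference of the beta-actin control probe sets, a sign of RNA wear, was 0.70 in serum-grown and 0.47 in deprived control cells, and lay between 0.38 and 0.54 on the other inhibitor-series arrays. Its part in the differences was not tested.

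Promoter sequences are shown for 5 genes, each from a different main group below. Only members holding the searched letters were considered, and the one with the largest difference, dim levels raised, was taken. Its letters therefore need not stand for its group. All are from RefSeq on GRCh38.p14, plus strand, from 250 bases before to 30 after the start of transcription. Capitals mark the letters searched for the gene's own group, and letters of the other searches stay in lower case. KLK3 (chr19:50854665-50854944) belongs to the androgen targets, NUSAP1 (chr15:41332631-41332910) to the mitosis genes and DTL (chr1:212035498-212035777) to the replication genes. LCN2 (chr9:128149203-128149482) belongs to the NF-kB targets and IFIT3 (chr10:89327747-89328026) to the interferon genes.
KLK3: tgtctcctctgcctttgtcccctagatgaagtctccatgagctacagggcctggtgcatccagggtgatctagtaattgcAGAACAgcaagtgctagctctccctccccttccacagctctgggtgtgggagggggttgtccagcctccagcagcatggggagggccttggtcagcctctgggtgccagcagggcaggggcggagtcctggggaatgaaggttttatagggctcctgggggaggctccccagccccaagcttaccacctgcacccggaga
NUSAP1: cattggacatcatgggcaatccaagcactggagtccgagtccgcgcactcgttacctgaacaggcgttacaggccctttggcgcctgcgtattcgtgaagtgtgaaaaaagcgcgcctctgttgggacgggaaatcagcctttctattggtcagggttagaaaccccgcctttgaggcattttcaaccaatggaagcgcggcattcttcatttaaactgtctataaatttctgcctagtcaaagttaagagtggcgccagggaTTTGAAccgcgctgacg
DTL: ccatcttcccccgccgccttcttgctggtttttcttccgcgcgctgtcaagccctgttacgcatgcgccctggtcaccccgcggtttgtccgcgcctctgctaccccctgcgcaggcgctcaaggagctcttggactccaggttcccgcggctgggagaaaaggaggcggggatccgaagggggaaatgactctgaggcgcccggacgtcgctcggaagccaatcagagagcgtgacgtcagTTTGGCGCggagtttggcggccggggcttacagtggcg
LCN2: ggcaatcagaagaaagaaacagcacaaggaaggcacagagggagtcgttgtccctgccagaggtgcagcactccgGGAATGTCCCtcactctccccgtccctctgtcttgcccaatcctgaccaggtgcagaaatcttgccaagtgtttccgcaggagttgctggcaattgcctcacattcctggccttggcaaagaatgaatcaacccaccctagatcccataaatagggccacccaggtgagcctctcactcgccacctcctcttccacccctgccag
IFIT3: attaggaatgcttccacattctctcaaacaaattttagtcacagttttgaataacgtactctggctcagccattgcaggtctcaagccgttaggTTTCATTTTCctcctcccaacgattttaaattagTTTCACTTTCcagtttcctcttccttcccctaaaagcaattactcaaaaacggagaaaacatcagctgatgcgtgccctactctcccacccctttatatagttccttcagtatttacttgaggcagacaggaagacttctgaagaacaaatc

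The letters searched were TTTGAA for CHR elements, TTTGGCGC, TTTCCCGC, TTTCGCGC and TTTGCCGC for E2F sites, TTTC, any 2 bases and TTTC for interferon-stimulated response elements, GGGA, any 2 bases and TTCC or TCCC for NF-kB sites, and AGAACA for androgen response elements. Both strands of windows from 250 bases before to 50 after the first listed start were searched, each motif on its own, so that matches to different motifs may overlap. CHR letters were present in 22 of 33 mitosis genes with a window (66.7%), against 9.17% of the 9702 genes tested that had one. E2F letters were present in 19 of 34 replication genes (55.9%), against 5.43% of genes tested. Interferon-element letters were present in 15 of 23 interferon-response genes (65.2%), against 2.60%, and NF-kB letters in 4 of 10 NF-kB targets (40%), against 2.41%. These lists hold many genes for which such elements are textbook examples. AGAACA was present in 4 of 31 androgen-induced genes (12.9%), FKBP5, KLK3, NANS and PMEPA1, against 8.72% of genes tested. CCAAT, the box bound by NF-Y, was searched too and was present in 25 of 33 mitosis genes (75.8%), against 36.9% of genes tested. Over all 27305 RefSeq windows the shares were 15.4% for CHR, 3.33% for E2F, 3.65% for interferon-element, 2.43% for NF-kB, 14.9% for androgen element and 35.7% for CCAAT letters.

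**Figure D1:**
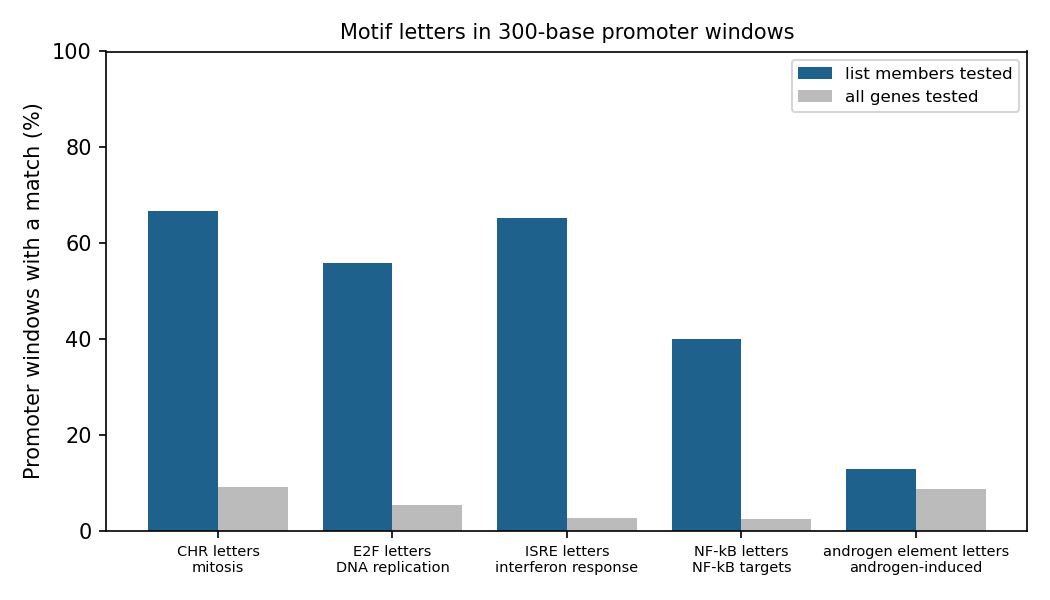
Share of promoter windows (%, vertical axis) that hold the searched letters, for tested members of 5 gene lists (blue) and for all genes tested (grey). The blue bar stands at 66.7% for CHR letters in mitosis genes and at 12.9% for androgen element letters in androgen-induced genes, with grey bars at 9.17% and 8.72%.

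Among all genes, the windows of the 629 genes with a difference of at least 1 upward held CHR letters in 17.8% and E2F letters in 10.5%. The 630 windows of genes lower by at least 1 held interferon-element letters in 6.67% and NF-kB letters in 4.44%. A match describes letters, not binding.

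limma called 3337 of 11865 genes (28.1%), 1860 higher (15.7%) and 1477 lower (12.4%) in serum-grown cells. Counts of called list members below are to be read against these shares. Of these calls 55.7% were upward. The share was 70.6% when the arrays were centred on the median level of 12 control genes, which shifted all genes by 0.15. The median difference of those 12 genes was 0.11 before and 0.26 after this step. Centring therefore did not make the control genes more alike on the 2 arrays. By size alone, 765 genes (6.45%) were higher by at least 1 and 800 (6.74%) lower by at least 1, and 724 and 753 of them also passed the test. Without the sh-TOP2B pair in the spread, 1185 genes were called higher and 1088 lower, and without the inhibitor-series pair 2724 and 2099. A difference of at least 3, which is 8-fold, was reached by 114 genes upward and 113 downward. The median difference over all genes tested was 0.045, and the median size 0.33. Across genes the 2 arrays correlated at r = 0.892 (Pearson), while the deprived control array correlated at 0.994 with the array of deprived cells given DHT.

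**Figure D2:**
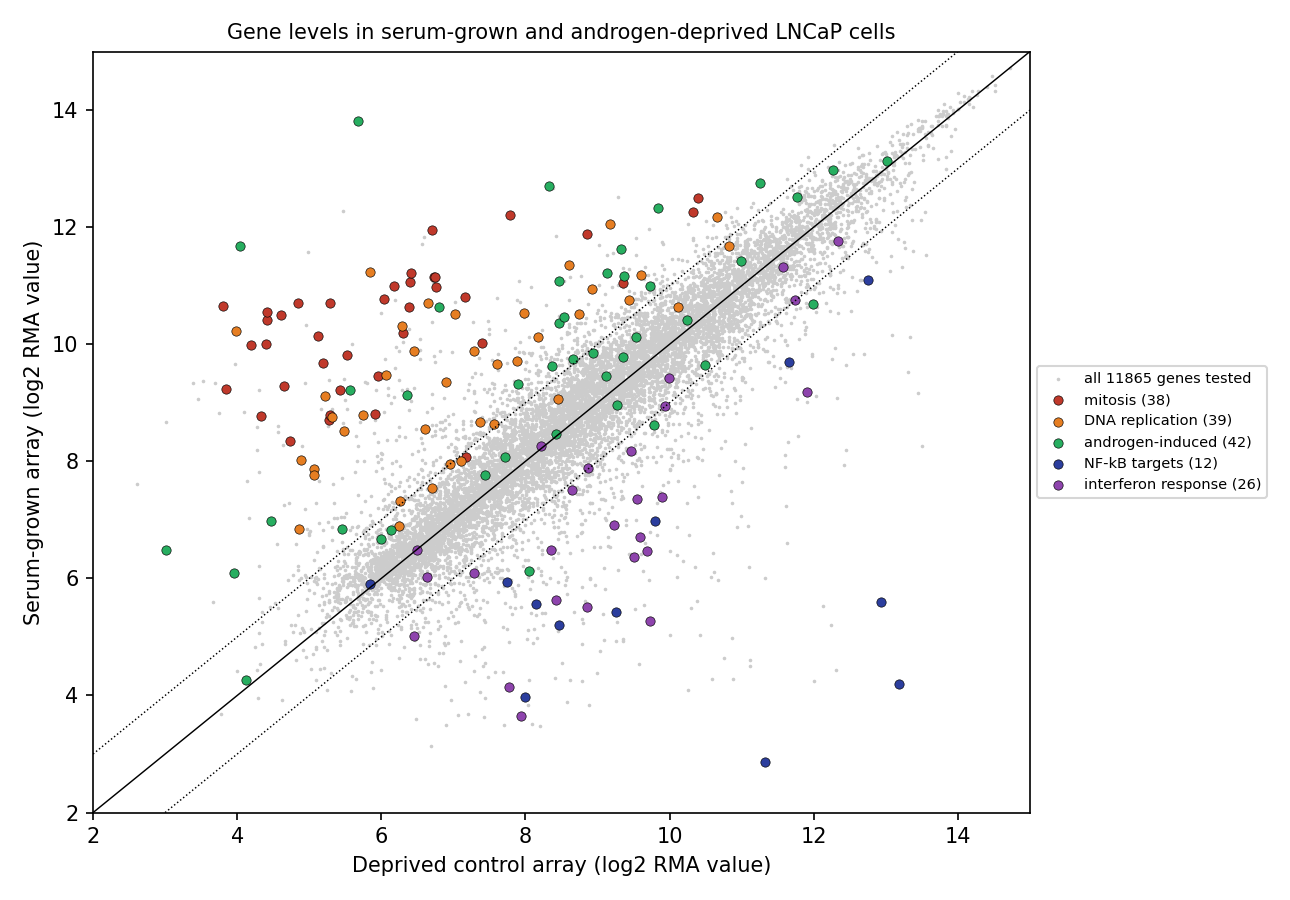
Level of each gene tested in serum-grown cells (vertical axis, log2 RMA value) against deprived control cells (horizontal axis), with all 11865 genes in grey and members of 5 lists in colour. Dotted lines mark a difference of 1. Mitosis and replication genes lie above the diagonal, and NF-kB targets lie on or below it.

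KLK3 encodes prostate-specific antigen and led the genes higher in serum-grown cells, with 13.82 against 5.68 in deprived control cells, a rise of 8.13 ± 0.18 (SE) or 281-fold (limma adjusted p = 8.32e-06). Its neighbour KLK2, a protease that activates prostate-specific antigen, had 11.68 against a dim 4.04 and rose by at least 6.03. In deprived control cells KLK2 was dim and KLK3 lay just above the median of the array. Also among the 12 largest rises were PEG3, a paternally expressed zinc finger gene, with 12.28 against 5.47 (at least 6.62 higher), and PBK, a mitotic kinase gene, with 11.57 against 4.98 (at least 5.92 higher). The other 8 were RRM2, NUSAP1, CENPU, RACGAP1, BIRC5, NDC80, NEK2 and ANLN, genes of DNA precursor synthesis, the spindle, the kinetochore and cell separation, with rises between at least 4.89 (ANLN) and 5.40 (RRM2).

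CCL20, a chemokine that draws lymphocytes to epithelia, led the lower side with a dim 4.19 in serum-grown cells against 13.18 in deprived control cells, a fall of at least 7.55 (adjusted p = 2.84e-05). LCN2, a secreted protein that withholds iron from bacteria, had 5.60 against 12.93 and fell by at least 7.30. Both genes were bright in deprived control cells and lay below the array median in serum-grown cells. Falls of at least 6.68 in FEZ1, 6.61 in MAN1A1, 6.50 in IL32 and 6.38 in KRT20 followed. FEZ1 encodes a transport adaptor, MAN1A1 a mannosidase of the Golgi, IL32 a cytokine-like protein and KRT20 a keratin of intestinal and urothelial cells. PTGS2, the inducible cyclooxygenase, had 2.86 against 11.32 (at least 5.70 lower). HLA-DRA, CFB, PDZK1IP1, PIGR and SEMA3C completed the 12, with falls between 5.23 (SEMA3C) and at least 5.50 (HLA-DRA).

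**Figure D3:**
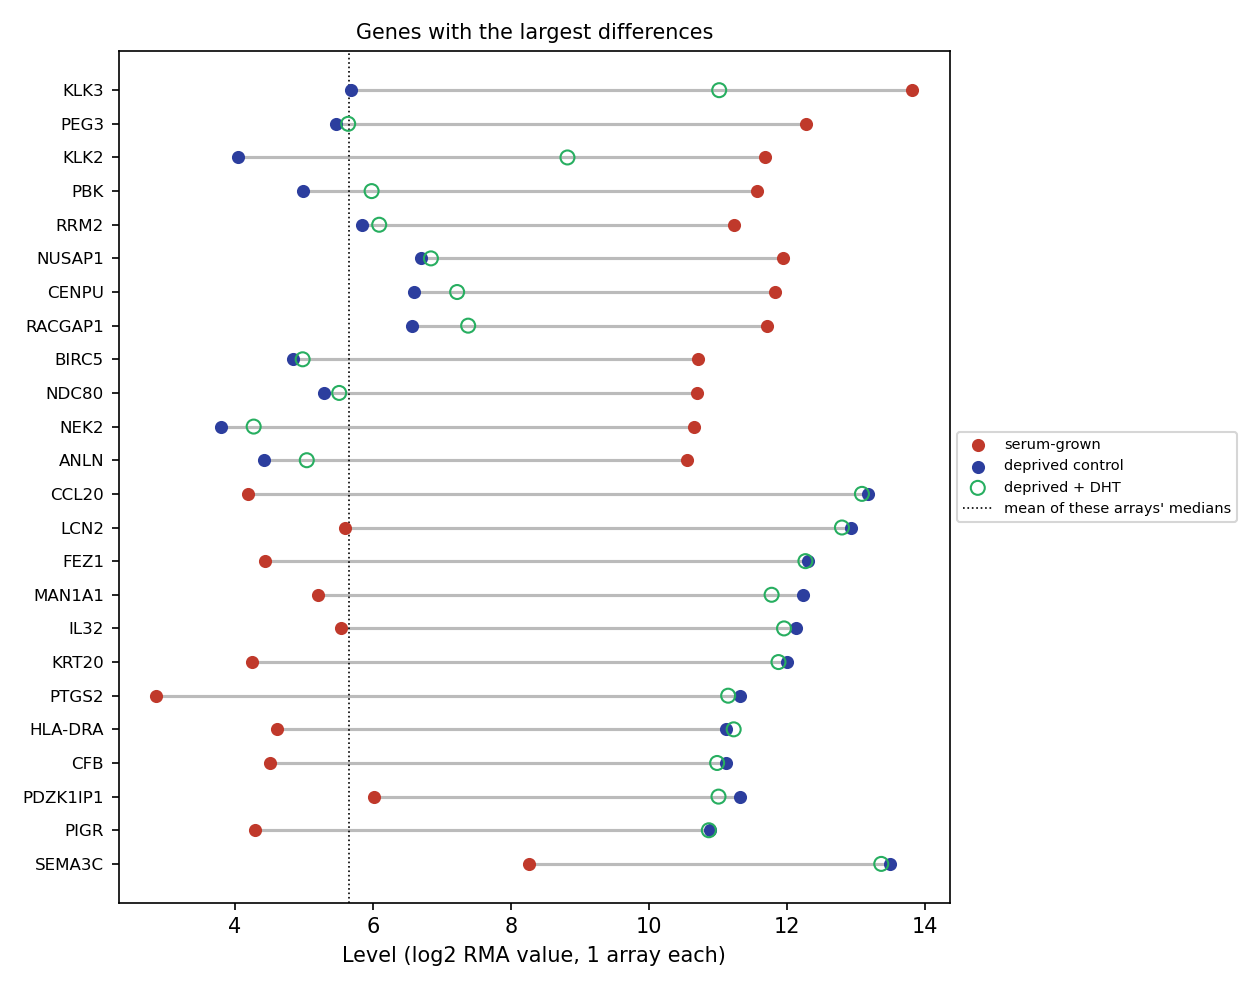
Levels (log2 RMA value, horizontal axis) of the 12 genes that rose most and the 12 that fell most, for serum-grown (red), deprived control (blue) and deprived cells given DHT (open green), 1 array each. The green circle lies between the other points for KLK3 (11.02) and KLK2 (8.82), and beside the blue point for PEG3 (5.64), CCL20 (13.09) and LCN2 (12.80).

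Where a gene had a second bright probe set, it mostly had the same sign. Of the 765 genes higher by at least 1, 354 had a bright second probe set, and it had the same sign in 338 (95.5%). Of the 800 genes lower, 449 had one, with the same sign in 422 (94.0%). Over all genes tested the share was 73.9%. The second probe set itself passed 1 in the same direction for 52.8% of the higher and 63.7% of the lower genes. The size could differ. Over 3 probe sets of KLK3 the difference ran between 1.21 and 8.13, and over 4 of KLK2 between 0.01 and 7.64. Over 2 of CFB it ran between -6.62 and 0.22, and over 2 of PEG3 between 6.81 and 7.45. Among genes named below, it ran between 0.07 and 1.99 over 2 of FASN, and between -0.01 and 1.68 over 4 of EBP.

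Genes known to be induced by androgen were for the most part higher in serum-grown cells. Of 42 tested members of that list, 22 rose and 1 fell, where 15.7% of all genes tested rose and 12.4% fell, with a median difference of 1.17 against 0.045 over all genes tested. The median over all 45 members on the array was 1.08, and 0.74 by the median of each gene's probe sets. Without the inhibitor-series pair in the spread 31 rose and 4 fell. TMPRSS2, a membrane protease gene, had 12.32 in serum-grown and 9.84 in deprived control cells, a rise of 2.48 ± 0.33 (adjusted p = 0.00254). FKBP5, a co-chaperone of steroid receptors, had 11.63 against 9.33 and rose by 2.31 ± 0.35. ZBTB16, a transcription factor gene, had 10.64 against 6.80 and rose by 3.84, and ST6GALNAC1, a sialyltransferase gene, had 9.22 against a dim 5.56 and rose by at least 3.56. CENPN rose by 4.39, and it is a kinetochore gene that also stands on a list of cell division genes. HOMER2, a scaffold protein gene, rose by 2.78.

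The androgen-induced genes were not uniform. ADAMTS1, a secreted protease gene chosen after its value was seen, was the member called lower with all 3 pairs in the spread, with 10.68 in serum-grown and 11.99 in deprived control cells. STEAP4, a metal reductase gene, was dim on both arrays (4.26 and 4.12). SGK1, a kinase gene of the steroid response, had 6.12 against 8.05 and did not pass the test (adjusted p = 0.0553). STEAP4 was also chosen after its value was seen, while SGK1 is named as one of the largest members of another list. The levels with DHT, which were set against the same control array, stood between the 2 conditions for the leading genes: 11.35 for TMPRSS2, 10.34 for FKBP5, 9.39 for ZBTB16 and 8.74 for ST6GALNAC1.

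Genes known to be repressed by androgen tended to the opposite side. The median level of the 23 on the array was 7.64 in serum-grown and 9.38 in deprived control cells. With DHT in the same series that level was 9.36, beside the deprived control, although single members differed more, as given below. Of 20 tested, 10 fell and 2 rose, with a median of -1.40. It was -0.78 by the median of each gene's probe sets and -0.84 under a stricter filter on dim genes, and 14 fell and 4 rose without the inhibitor-series pair. SLC12A2, a sodium, potassium and chloride cotransporter gene, had 9.52 in serum-grown and 13.31 in deprived control cells and fell by 3.79 ± 0.09 (limma adjusted p = 8.51e-06). TMEM158 had 6.40 against 10.10 and fell by 3.70, and SERPINI1, a neuronal protease inhibitor gene, fell by 3.36. AMIGO2, a cell adhesion gene, fell by at least 3.64 and OPRK1, the kappa opioid receptor gene, by 2.91. Their calls were the weakest among the named members: adjusted p = 0.0235 and 0.0401, and 0.068 and 0.0599 when the sh-control pair was left out of the spread. PEG3 (at least 6.62 higher) moved against the name of its list. It was also bright in deprived sh-control cells with vehicle (11.13), and lay between 5.47 and 6.01 on the deprived arrays of the inhibitor series.

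Every tested mitosis gene was higher in serum-grown cells. All 38 rose, with a median of 4.42, and the 3 members on the array too dim to test, KIF23, TTK and ASPM, differed in the same direction (median of all 41: 4.45). Fewer cells in division and less of these RNAs per cell cannot be told apart in bulk RNA. MKI67, whose protein marks cycling cells, had 8.71 in serum-grown and a dim 5.28 in deprived control cells (at least 3.06 higher, adjusted p = 0.000414). BIRC5, which encodes survivin, a subunit of the chromosomal passenger complex, had 10.71 against 4.84 and rose by at least 5.06. NUSAP1, a spindle protein gene, had 11.95 against 6.70 and rose by 5.25 ± 0.16. NEK2, a centrosome kinase gene, rose by at least 5.00, NDC80, a kinetochore gene, by at least 5.05, and KIF20A, a motor protein gene of cell separation, by at least 4.84. The smallest rise of the list was that of CENPA (0.90), the centromeric histone gene, chosen after its value was seen. Its limma call (adjusted p = 0.0359) was lost without the sh-control pair (0.0686) or the sh-TOP2B pair (0.0512), which left 37 calls of 38.

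DNA replication genes moved the same way by smaller amounts. Of 39 tested, 36 rose and none fell, with a median of 2.06. RRM2, a subunit of ribonucleotide reductase, had 11.24 in serum-grown and 5.84 in deprived control cells and rose by 5.40 ± 0.21. DTL, the substrate receptor of a ubiquitin ligase that acts in S phase, had 10.22 against 3.98 and rose by at least 4.56. GINS1 of the replicative helicase rose by 4.05, thymidine kinase gene TK1 by 4.02, RFC3 of the clamp loader by 3.50 and UHRF1, which helps to copy DNA methylation, by at least 3.47. The 3 members that did not pass were POLE (0.65), POLD3 (0.89) and CHAF1A (0.62), all positive.

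A pair of lists chosen after the values were seen covered related genes. Of 21 tested chromosome condensation and kinetochore genes 20 rose and none fell (median 2.60), and of 17 homologous recombination and Fanconi genes 12 rose and none fell (median 2.15). RAD51AP1, a homologous recombination gene, had 10.54 against 6.0 and rose by 4.54. BRCA1 had 9.22 against 5.92 and rose by 3.30, whereas its partner BARD1 had 11.23 against 11.50 and did not pass.

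Genes of the G1 phase were mixed: of 22 tested, 8 rose and 4 fell (median 0.46). SKP2, which targets CDK inhibitors for destruction, had 10.18 in serum-grown and 7.50 in deprived control cells and rose by 2.68 ± 0.15. The phosphatase gene CDC25A rose by 2.58, the kinase gene CDK2 by 2.51, the transcription factor gene MYBL2 by 1.85 and the cyclin gene CCNE2 by 1.75. By the median of their probe sets CDC25A and CCNE2 were not called (limma adjusted p = 0.129 and 0.1). The members that fell included CDK inhibitor genes: CDKN2B had a dim 4.06 against 7.37 and fell by at least 1.75, and CDKN1A had 10.72 against 11.62 and fell by 0.91 ± 0.19 (adjusted p = 0.0136). The cyclin D1 gene CCND1, a classic serum-responsive gene, had 10.82 and 10.62 and did not pass (adjusted p = 0.329).

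Of the 7 topoisomerase genes and adduct-removing enzymes tested, 3 rose and none fell (median 0.40, and 0.15 over all 8 on the array). TOP2A, the form made in dividing cells, had 10.42 in serum-grown and 4.42 in deprived control cells and rose by at least 4.76 (adjusted p = 3.3e-05). TOP2B, the form that the study targeted, had 10.44 and 10.55 and a difference of -0.11 ± 0.17 (adjusted p = 0.723), which was 0.04 with the arrays centred on control genes. TOP1MT and TDP1 were called at adjusted p = 0.0399 and 0.0486, and lost the call without the sh-control pair (0.0789 and 0.0861) or without the sh-TOP2B pair (0.0614 and 0.107).

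Most histone genes that were tested ran against the mitosis and replication genes. Of 14 tested, 10 fell and 1 rose, with a median of -0.67 (-0.36 over all 22 on the array). Of those 22, 7 were dim on both arrays. H2BC4 had 9.05 in serum-grown and 10.78 in deprived control cells and fell by 1.73 ± 0.15, H4C8 fell by 1.70 and H2BC21 by 1.11. H1-10, a linker histone gene outside the main clusters, rose by 0.89. Close histone copies can share probes, so the member measured is uncertain.

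**Figure D4:**
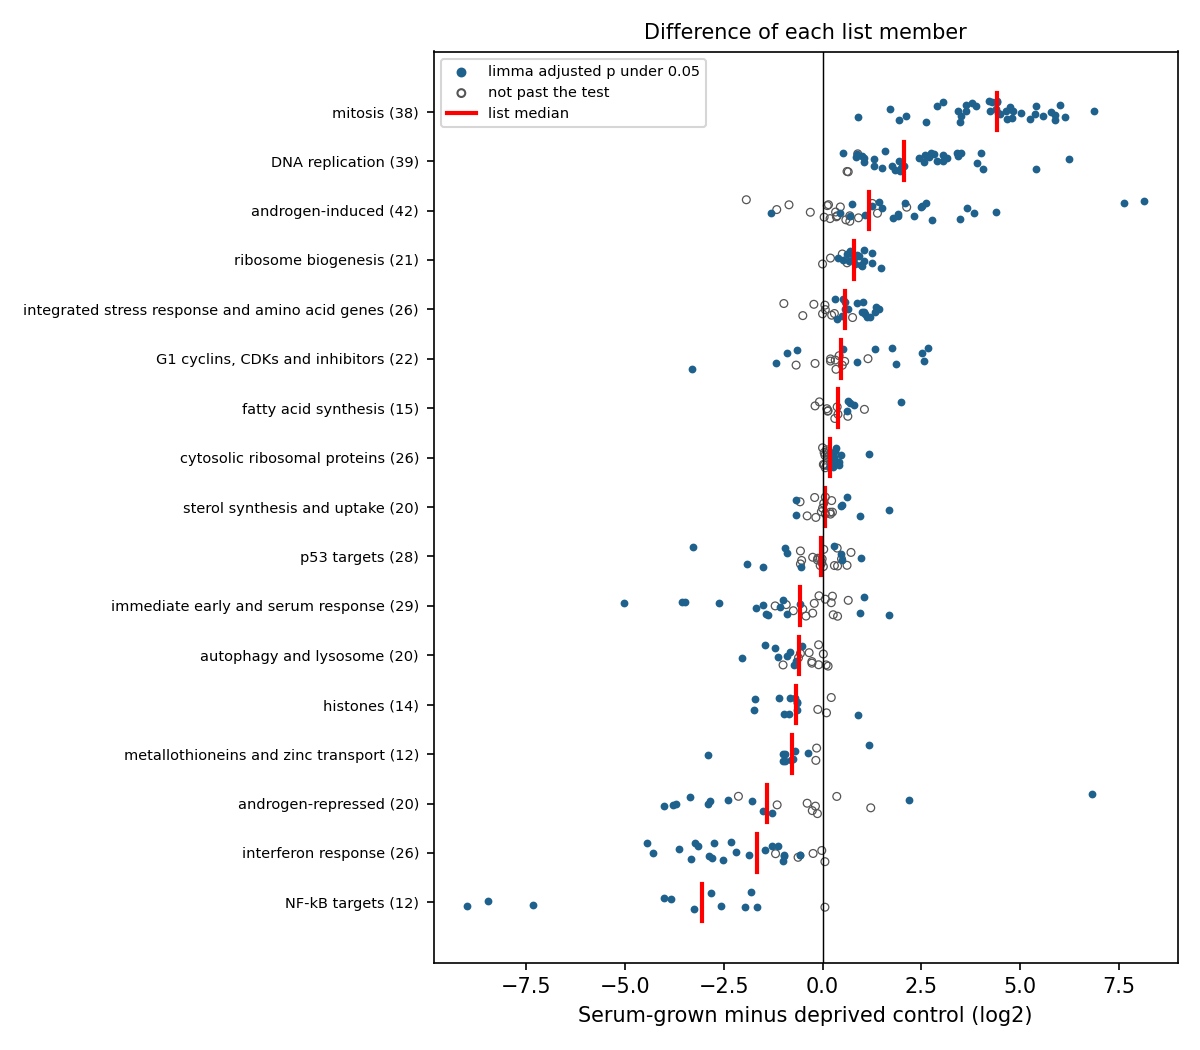
Difference of each tested member (log2, serum-grown minus deprived control, horizontal axis) for 17 lists, numbers of genes in brackets. Filled points passed limma, open points did not, and the red bar is the list median. All 38 mitosis genes lie right of 0, and 11 of 12 NF-kB targets are filled points on the left.

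NF-kB targets had the lowest median of the lists with more than 1 gene tested. Of 12 tested, 11 fell and none rose, with a median difference of -3.04, and over all 16 members on the array the median was -2.27. Behind CCL20, LCN2 and PTGS2, which are members, came TNFAIP3, a feedback inhibitor of NF-kB, with a dim 5.42 in serum-grown and 9.26 in deprived control cells (at least 3.63 lower, adjusted p = 3.08e-05). The chemokine gene CCL2 had 5.21 against 8.47 and fell by at least 2.84, and the subunit gene NFKB2 had 6.98 against 9.80 and fell by 2.82. IL6 and the chemokine gene CXCL1, also chosen after their values were seen, were dim on both arrays (4.27 and 4.27 for IL6, 2.95 and 3.19 for CXCL1). The member tested that did not pass was TNFAIP2 (0.06, and -0.11 by the median of its probe sets).

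Interferon-response genes lay lower as well. Of 26 tested, 21 fell and none rose (median -1.66). IFIT3, an antiviral gene, had a dim 5.28 in serum-grown and 9.73 in deprived control cells and fell by at least 4.11 (adjusted p = 2.89e-05). IRF1, a transcription factor gene of this response, had 5.52 against 8.86 and fell by at least 3.24. IFIT1, with 6.46 against 9.68, fell by 3.22, IFIT2 by 3.15, IFI44 by 2.88 and OAS1, a sensor of double-stranded RNA, by 2.79. MX1 and OAS3, chosen after their values were seen, did not pass (-0.02 and 0.06, and 0.13 for MX1 with the arrays centred on control genes), although both windows hold the interferon-element letters.

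Further lists of defence genes were chosen after the values were seen. Of 16 MHC class I presentation genes, 13 fell and none rose (median -1.48), with HLA-B at 11.52 in serum-grown and 13.56 in deprived control cells and the immunoproteasome gene PSMB9 at 6.42 against 9.61. Of 9 MHC class II genes tested 6 fell and none rose (median -2.0, and -1.0 over all 12 on the array), with HLA-DRA at a dim 4.61 against 11.12. CIITA, the regulator of class II genes, was dim on both arrays (5.56 and 5.57). Of 14 acute phase, complement and mucosal defence genes 9 fell and none rose (median -2.01, and -0.79 over all 18 on the array), among them the protease inhibitor gene SERPINA3, with 6.03 against 10.58. Of 11 TNF superfamily genes 6 fell and none rose (median -1.64), among them TNFSF10, which encodes the death ligand TRAIL, with 5.98 against 10.67. HLA class I genes share much sequence, so their probe sets may read more than 1 of them.

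Of 29 immediate early and serum response genes tested, 12 fell and 3 rose (median -0.57). EGR1, a transcription factor gene that growth factors switch on within minutes, had a dim 4.54 in serum-grown and 9.57 in deprived control cells and fell by at least 3.94 (adjusted p = 0.000316). FOS had 4.68 against 7.30 and fell by at least 1.68. The MAP kinase phosphatase genes DUSP5 and DUSP6 fell by at least 3.17 and 1.81, and SPRED1, another inhibitor of that pathway, fell by 1.52. Against this direction, its relative SPRY1 rose by 1.67, and MYC had 11.96 against 11.02 and rose by 0.94 ± 0.13 (adjusted p = 0.00294).

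Growth and biosynthesis genes were higher by modest amounts. Of 21 ribosome biogenesis genes tested 17 rose and none fell (median 0.80). The RNA polymerase I subunit gene POLR1B had 9.76 in serum-grown and 8.29 in deprived control cells and rose by 1.47 ± 0.17, and FBL, which methylates ribosomal RNA, rose by 1.25, as did NOP2. Of 26 cytosolic ribosomal protein genes 13 rose and none fell, with a median of 0.20. RPL35 rose by 0.47 and RPS19 by 0.41. Without the sh-TOP2B pair 6 of the 26 were called. With the arrays centred on control genes these differences grow by 0.15.

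Of 26 tested genes of the integrated stress response and amino acid supply, 17 rose and none fell (median 0.57). The serine synthesis gene PHGDH had 12.08 in serum-grown and 10.87 in deprived control cells and rose by 1.21 ± 0.20, the folate enzyme gene MTHFD2 rose by 1.07, and CHAC1, which degrades glutathione, by 1.44. The stress marker DDIT3, chosen after its value was seen, had 9.59 and 9.53 and did not pass. In the polyamine list, 3 of 11 rose and 2 fell (median 0.14): the arginase gene ARG2 had 11.91 against 8.85 and rose by 3.06 ± 0.18, spermidine synthase gene SRM rose by 1.36, and SAT1, which starts polyamine breakdown, had 11.65 against 13.27 and fell by 1.62.

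Lipid and sugar metabolism lists are read against the 15.7% of all genes tested that rose and the 12.4% that fell. Of 15 fatty acid synthesis genes 5 rose and none fell (median 0.39), led by fatty acid synthase gene FASN, with 11.52 in serum-grown and 9.54 in deprived control cells (1.99 ± 0.23). ACLY, which makes cytosolic acetyl-CoA, rose by 0.79 and ACACA, its carboxylase, by 0.64. Of 20 sterol genes 5 rose and 2 fell (median 0.07), led by the sterol isomerase gene EBP (1.68 higher). Without the sh-TOP2B pair 3 fatty acid genes rose, and without the inhibitor-series pair 9. Without the sh-TOP2B pair 2 sterol genes rose and 1 fell. HMGCS1, the gene of HMG-CoA synthase, had 8.54 and 8.35 and did not pass (adjusted p = 0.509). It was -0.20 by the median of its probe sets. Of 7 LXR targets 1 rose and 2 fell (median -0.00), and those 3 calls, of NR1H3, ABCG1 and LPCAT3, were lost without the sh-TOP2B pair (adjusted p = 0.0504 to 0.0932).

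Of 31 glycolysis and hypoxia genes, 10 rose and 4 fell (median 0.15), the falls being near the 12.4% of all genes tested. The hexokinase gene HK2 had 9.16 in serum-grown and 7.29 in deprived control cells and rose by 1.87, the pyruvate dehydrogenase kinase gene PDK1 rose by 1.86 and the lactate dehydrogenase gene LDHA by 1.12. By the median of their probe sets HK2 and PDK1 were not called (limma adjusted p = 0.246 and 0.0852). EGLN3, an oxygen sensor, fell by 2.02 and ADM, a vasodilator peptide gene, by at least 1.83.

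Genes of breakdown, of IGF, insulin and FOXO signalling and of zinc handling were lower in part. Of 20 autophagy and lysosome genes 9 fell and none rose (median -0.59, and -0.34 by the median of each gene's probe sets). The sialidase gene NEU1 had 9.61 in serum-grown and 11.63 in deprived control cells and fell by 2.03 ± 0.16, the membrane protein gene LAMP2 fell by 1.14 and GABARAPL1, a coat protein gene of autophagosomes, by 1.20. Of 23 IGF, insulin and FOXO genes 9 fell and 2 rose (median -0.49, and -0.17 over all 28 on the array), or 10 and 5 without the inhibitor-series pair, with IGFBP3, which binds insulin-like growth factors, at 7.47 against 9.87 (fell by 2.40 ± 0.16) and the kinase inhibitor gene PIK3IP1 at 8.0 against 10.19. Of 12 metallothionein and zinc transport genes 9 fell and 1 rose (median -0.77). The zinc exporter gene SLC30A1 had 8.01 against 10.91 and fell by 2.90 ± 0.12, the zinc-binding MT1X fell by 0.94 and MT2A by 0.99, and the importer gene SLC39A10 rose by 1.18. Metallothionein genes are close copies and can share probes.

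Several lists had medians near that of all genes. Their counts are read against the 15.7% of all genes tested that rose and the 12.4% that fell. Those of the unfolded protein response list lie near these shares. Of 28 p53 targets 4 rose and 6 fell (median -0.04), or 1 and 6 without the sh-TOP2B pair and 7 and 9 without the inhibitor-series pair. The death receptor gene FAS had 7.73 in serum-grown and 9.25 in deprived control cells and fell by 1.52, and the kinase gene PLK2 fell by 1.92. TRIM22 fell by at least 2.06, and it is also an interferon-induced gene. Of 22 unfolded protein response genes 3 rose and 3 fell (median -0.17), with the sensor gene ERN1 at 8.92 against 10.68 (fell by 1.76; limma adjusted p = 0.29 by the median of its probe sets). Of 11 heat shock genes 2 rose, CHORDC1 (0.77) and HSPE1 (0.75), and none fell (median 0.09). Of 12 BMP and TGF-beta targets 2 rose and 1 fell (median 0.16), and of 14 targets of retinoid, vitamin D, thyroid and glucocorticoid receptors 4 rose and 3 fell (median 0.18). In the second of these lists PLAAT4, a retinoid-induced gene, had 6.20 against 10.35 and fell by 4.15, and TSC22D3, a glucocorticoid-induced gene, had 10.46 against 8.54 and rose by 1.91. Of the 12 scaling control genes, 2 rose and 2 fell (median 0.11), HPRT1 by 1.24 upward and B2M by 0.84 downward being the largest.

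The luminal identity list had a median close to that of all genes. Counts in this paragraph are read against the same 15.7% of genes tested that rose and 12.4% that fell. Of 13 tested 1 rose and 3 fell (median -0.07). ELF3, an epithelial transcription factor gene, had 7.86 in serum-grown and 10.01 in deprived control cells and fell by 2.15 ± 0.21, and FOLH1, the gene of prostate-specific membrane antigen, had 9.21 against 10.17 and fell by 0.96. The factor genes GATA2 (0.36) and SPDEF (0.61) and the keratin gene KRT8 (-0.53) did not pass. Of 11 prostate secretory and surface genes tested 6 rose and 3 fell, with the kallikreins first in size. Their median was 1.93, but 0.12 over all 16 on the array, of which 6 were dim on both arrays, and 0.84 under a stricter filter on dim genes. SLC45A3 had 11.08 against 8.46 and rose by 2.62, and AZGP1, a secreted glycoprotein gene, had 11.21 against 9.13 and rose by 2.09. ACP3, the gene of prostatic acid phosphatase, had 8.62 against 9.78 and did not pass (adjusted p = 0.0545). Of 14 genes of androgen conversion and inactivation 1 rose and 2 fell (median -0.23). The steroid sulfatase gene STS had 7.57 against 8.90 and fell by 1.33, and UGT2B17, a glucuronosyltransferase gene of androgen removal, had 10.60 against 9.38 and did not pass (adjusted p = 0.121). Of 4 neuroendocrine markers tested 1 rose and 1 fell (median -0.20). DDC, the gene of dopa decarboxylase, had 12.26 against 13.55 and fell by 1.28. Of 13 on the array, 7 were dim on both arrays, among them CHGA.

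The remaining arrays place these differences in the series. In deprived cells given DHT, which were set against the same control array, the mitosis list stood at a median level of 5.96, against 10.42 in serum-grown and 5.53 in deprived control cells. The replication list stood at a median level of 6.94 with DHT, 9.67 in serum and 6.95 in the deprived control. Its named members differed more than these medians. DHT minus deprived control was 0.87 for DTL, 0.65 for TK1, 0.37 for UHRF1, 0.25 for RRM2, 0.22 for GINS1 and -0.21 for RFC3. The androgen-induced list stood at 9.27 with DHT, 9.74 in serum and 8.46 in the deprived control. After 16 h of DHT the androgen-induced list thus lay nearer to serum-grown cells than the division genes did, a description of 1 array each. The median level of the androgen-repressed list stood at 9.36 with DHT, 7.64 in serum and 9.38 in the deprived control. A median of levels need not follow the same gene from array to array. Among named members, DHT minus deprived control was -0.90 for AMIGO2, -0.74 for TMEM158, -0.66 for OPRK1 and -0.39 for SLC12A2. It was -0.13 for SERPINI1, 0.17 for PEG3 and 1.20 for UGT2B17. NF-kB targets stood at 8.69 with DHT, 5.49 in serum and 8.30 in the deprived control, and MHC class I genes at 11.03, 9.27 and 11.02 in that order.

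**Figure D5:**
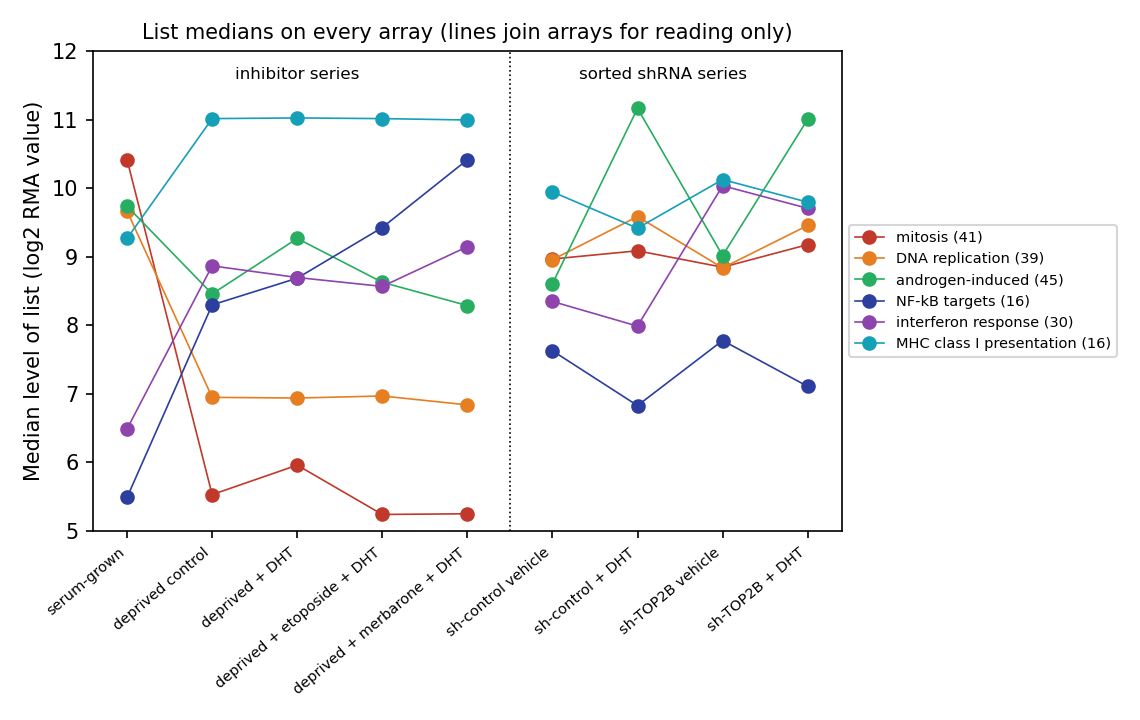
Median level (log2 RMA value, vertical axis) of 6 lists on each of the 9 arrays, all members on the array included, with numbers of genes in brackets. Mitosis genes stand at 10.42 in serum-grown cells, between 5.24 and 5.96 in deprived arrays of the inhibitor series and between 8.85 and 9.18 in the shRNA series.

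Deprivation did not go with the same levels in the shRNA series. Its 4 arrays, all from deprived cells, had mitosis medians between 8.85 and 9.18, and sh-control cells with vehicle had a replication median of 8.96 and an NF-kB median of 7.63. Deprivation was for 48 h in stripped serum in both series. Transfection, sorting and the 3' to 5' signal set those arrays apart, with a beta-actin 3' minus 5' difference between 2.38 and 3.09. The parts of these cannot be told apart from one another. DHT against vehicle in sh-control cells shares no array with serum-grown against deprived control cells. Of the 765 genes higher by at least 1 in serum-grown cells, 92 were also higher by at least 1 with DHT there, which is 12% of the 765 and 36.8% of the 250 genes higher with DHT, where 6.45% of all genes tested were higher in serum-grown cells. Of the 800 lower, 102 were also lower with DHT, 12.8% of the 800 and 47.9% of 213, where 6.74% of all genes tested were lower in serum-grown cells. In opposite directions, 4 genes higher in serum-grown cells were lower with DHT, 1.88% of the 213 and below the 6.45%. Another 22 genes lower in serum-grown cells were higher with DHT, 8.8% of the 250 and above the 6.74%.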

How the data were processed

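RNA of 9 LNCaP samples was hybridised to Affymetrix U133 Plus 2.0 arrays, 1 per group, so the number of arrays limits the precision. The authors deposited log2 values. Per the submitters' processing notes they come from RMA, with no version or settings stated in the sources used here. RMA equalises the distributions of the arrays, and any shift common to most genes is lost with that step. Of 54675 probe sets, 41097 had 1 gene symbol in the platform annotation, 1801 several and 11777 none. The probe set with the highest mean stood for each of 19775 genes, and genes with a mean under the 40th percentile were left out, which left 11865. limma 3.58.1 (R 4.3.3) fitted serum growth, DHT, each inhibitor and the 3 backgrounds with an intensity trend, so the spread had 2 residual and 4.62 prior degrees of freedom, and p-values were adjusted by the Benjamini-Hochberg method. P-values then measure only how far the 3 DHT effects differ between backgrounds, which may be technical or biological. A gene whose DHT response differed between backgrounds therefore got a wide SE. SGK1 is an example, with DHT differences of 0.1 (inhibitor series), 2.1 (sh-control) and 1.69 (sh-TOP2B) and an SE of 0.6. The limma fit was also run on simulated data drawn with its own fitted spread. Such data cannot show whether the serum-grown array varies like the DHT pairs. The text names the 12 largest differences each way, up to 6 called or largest members of each of 35 lists, and 14 genes of interest, of which 11 are reported here. A further 6 lists, their genes, and other genes outside this rule were chosen after their values were seen. The comparison and all lists were chosen with earlier results of these data known. Alternatives covered the filter, the probe set rule, centring, quantile normalization, the trend, the fitted control level, dim levels and leaving out each DHT pair.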

Additional observations from a re-analysis of the deposited data

How the results depend on the processing

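No paired analysis was possible because the labels carry no replicate numbers and each group had 1 array. The 3337 limma calls ran between 2273 and 4823 when a DHT pair was left out of the spread (2540 without the sh-control pair), and between 2482 without the intensity trend and 3918 against the fitted control level. Calls upward ran between 1185 and 2724, and calls downward between 1088 and 2099. Centring on control genes shifted the median by 0.15, and 2696 genes were then called higher and 1124 lower, so that 70.6% of calls were upward in place of 55.7%. It used the median level of the control genes, and their median difference widened from 0.11 to 0.26. The stricter filter left 487 genes higher by at least 1 in place of 765, since fewer genes were tested, and 4 lists with a median beyond 1 in size in place of 8.

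List medians that changed sign were those of p53 targets (0.02 over median probe sets, 0.11 centred), luminal identity factors (0.08 centred), basal markers (0.16 with no filter, 0.08 centred) and, under the stricter filter, BMP and TGF-beta targets (-0.57), retinoid and related targets (-0.35) and topoisomerases (-0.11). The genes that changed sign had not passed the test: HMGCS1 (-0.20) and TNFAIP2 (-0.11) over median probe sets, HOXB13 (0.15), KRT18 (0.10), MX1 (0.13) and TOP2B (0.04) centred, HOXB13 (0.00) and MX1 (0.04) after quantile normalization again, and KRT18 (0.17) against the fitted control level. The cause was not tested. Of 131 named genes that were called, 27 lost the call under at least 1 alternative. By the median of their probe sets these included PMEPA1, STS, HPRT1, PDK1, TSC22D3, CCNE2, CHORDC1, CDC25A, HK2 and ERN1 (limma adjusted p = 0.056 to 0.29), without the trend CDKN1A, EGLN3, FOLH1, B2M, CCL2, RPL35 and RPS19 (0.0556 to 0.0989), and DDC under both (0.102 and 0.0633). NANS lost the call under 6 alternatives. Left-out pairs were also applied to list counts, a choice made after seeing the data: NF-kB targets kept a count of 11 falls under each, interferon genes had 20 to 23, mitosis genes 37 or 38 rises, replication genes 31 to 38 and androgen-induced genes 20 to 31.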

Other observations

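In cells given an inhibitor before DHT, list medians differed from those with DHT alone, and each is the value of 1 array. The NF-kB median was 9.43 with etoposide and DHT and 10.42 with merbarone and DHT, against 8.69 with DHT alone. The p53 target median was 10.48 with etoposide and DHT and 11.28 with merbarone and DHT, against 9.21 with DHT alone. The prostate secretory median was 7.20 with etoposide and DHT and 5.88 with merbarone and DHT, against 9.0 with DHT alone.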
